A study of Mus musculus with 18 samples.

Results

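The cytosolic ribosomal protein genes encode the protein part of the ribosome that translates messages made in the nucleus. They were taken as all genes whose symbol starts with Rpl or Rps followed by a digit, together with Rplp0, Rplp1, Rplp2 and Rpsa, without the Rps6k kinases, Rps19bp1 and symbols that contain -ps. Of 12394 genes on the array 48 met this rule, 26 of the large subunit (Rpl) and 22 of the small subunit (Rps). A mean signal of at least 4 on the log2 scale over all arrays was reached by 7382 genes, among them 47 of the 48. The exception was Rpl3l, with a highest control value of 2.52; in muscle it is the counterpart of Rpl3. Each gene was read from 1 probe set, the one with the highest mean. The 30 ribosomal protein symbols that stand only on probe sets listing several genes, such as Rplp1, Rpl5, Rpl3, Rpl10 and Rps27a, were not used here.

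RNA came from mouse embryo fibroblasts, which are cultured connective tissue cells of the embryo, with 1 array per culture and 18 arrays in all. One culture carried 3 copies of chromosome 1, 4 carried 3 copies of chromosome 13, 3 carried 3 copies of chromosome 16 and 1 carried 3 copies of chromosome 19. The 9 control cultures had normal chromosomes. All cells were grown for 2 passages in the same medium, while the sources used here do not give the strain, the age of the embryos or the origin of the extra chromosome. The series calls the cultures different lines without naming their embryos, so the p-values reflect only how far these cultures spread, which may be technical. The groups of trisomy 1 and trisomy 19 hold 1 line each and are assumed to vary like the others.

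A ribosome holds a single copy of almost every ribosomal protein, and proteins made in excess of their partners are generally broken down in the nucleus. The messages of mammalian ribosomal proteins belong to the class that starts with C and a run of pyrimidines (C or T), through which growth signals and the mTOR kinase set how much of them is translated. When assembly is disturbed, some free ribosomal proteins, Rpl11 among the best known, bind Mdm2 and thereby stabilise p53.

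The starts of several of these genes are shown because the pyrimidine run at the start was not used to choose the genes and is found in a part of them. Each line gives 15 bases before and 15 after the annotated start, from RefSeq on GRCm38.p6, and capitals mark a run of at least 6 bases C or T that begins with C within 10 bases of the start. Rpl37a, Rplp0 and Rps15 hold no such run in this window.
Rpl35: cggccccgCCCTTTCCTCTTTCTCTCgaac
Rps6: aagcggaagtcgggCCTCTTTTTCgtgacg
Rps27: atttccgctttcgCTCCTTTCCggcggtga
Rps26: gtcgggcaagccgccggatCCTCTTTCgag
Rpl22l1: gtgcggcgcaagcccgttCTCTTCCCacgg
Rpl39l: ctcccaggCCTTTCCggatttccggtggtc
Rpl37a: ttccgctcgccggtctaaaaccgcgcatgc
Rplp0: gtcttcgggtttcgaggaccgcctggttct
Rps15: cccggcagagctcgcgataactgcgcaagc

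The Rpl35 window lies at chr2:39005117-39005146, that of Rps6 at chr4:86857353-86857382, that of Rps27 at chr3:90213634-90213663 and that of Rps26 at chr10:128626492-128626521, all on the minus strand. On the plus strand are Rpl22l1 at chr3:28805493-28805522, Rpl39l at chr16:10170213-10170242, Rpl37a at chr1:72711245-72711274, Rplp0 at chr5:115559452-115559481 and Rps15 at chr10:80292416-80292445. Each window spans the upstream flank and the first transcribed bases at the table's start, and other starts of the same genes may exist.

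The promoter table (250 bases before to 50 after the start) held 42 of the 48 genes with 50 promoters. A run of at least 6 bases C or T within 10 bases of the start was found at 24 of these 50 promoters (48.0%), against 19.2% of all 32851 promoters and 19.4% of the 7847 promoters of genes that passed the filter. The letters CCGGAAG, known as a core of sites for ETS family factors, stood on either strand in 21 of the 50 (42.0%), against 8.86% of all promoters and 19.1% of those of genes that passed the filter. AANATGGC, which resembles sites of Yy1, was in 8 of the 50 (16.0%), against 6.05% of all and 9.23% of those of genes that passed the filter. TATAAA was in 6 of the 50 (12%), against 13.6% of all and 6.88% of those of genes that passed the filter, so which share is higher depends on the promoters set beside it. Both strands were searched for these 3 motifs, which do not contain one another. The pyrimidine run was read on the gene's own strand, and a run can contain part of the reverse letters of CCGGAAG. A match describes letters only, and the annotated starts can lie some bases off the start used in these cells.

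Most of these genes gave signals near the top of the scale. A mean of 14 or more was reached by 36 of the 47, and the highest value of any probe set on any array was 16.57, so how far a further rise of such signals would be recorded was not tested. The values are background-corrected log2 signals of hybridisation, whose level also depends on the probes, and the levels of different genes were not compared.

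RNA quality was uneven. On 3 arrays the 3' end of the Gapdh control gave a far higher signal than the 5' end, by 6.94 on trisomy 13 replicate 3, 5.57 on trisomy 13 replicate 4 and 6.55 on trisomy 16 replicate 1 (log2). On the other 15, all controls among them, this difference lay between -0.20 and 1.41. These 3 are called the 3'-biased arrays. The fibroblast and matrix markers were measured throughout: 16 of 17 had a probe set, all 16 passed the filter, and their mean level per array lay between 12.86 and 14.21 in trisomic cultures and between 13.00 and 14.23 in controls. Of 16 macrophage markers with a probe set 5 passed. The mean level per array over all 16, those under the filter included, was 2.86 to 5.6 in trisomic cultures and 2.69 to 4.97 in controls. The erythroid markers had 0 genes above the filter. Of 9 neural markers 4 passed, of 9 endothelial markers 1, of 9 epithelial markers 2 and of 8 skeletal muscle markers 2. In trisomy 13 all 5 macrophage markers were above the control mean and 0 passed (limma; 1 at an unadjusted p under 0.05). Between trisomy 13 and trisomy 16 the fibroblast marker Pdgfra was lower (-2.06) and the neural marker Stmn2 higher (5.43), the 2 markers that passed there. The part of other cells in the results was not tested, and in such bulk RNA fewer cells of a type and less RNA per cell cannot be told apart.

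In the control cultures the ribosomal protein genes varied little. Over the 47 genes the median of the SD between the 9 controls was 0.14 on the log2 scale, against 0.38 for all genes tested and 0.24 for the 74 mitochondrial ribosomal protein genes, which serve the separate ribosome of mitochondria. High signals vary less on these arrays in general: among genes with a mean of 14 or more the median SD was 0.11 for the 36 ribosomal protein genes and 0.17 for all 203 genes. The 11 ribosomal protein genes below that level had a median SD of 0.34. For the probe sets kept, the smallest spreads were those of Rpl13a (SD 0.03), Rplp0, which anchors the acidic stalk of the large subunit (SD 0.05), and Rpl7 (SD 0.06). The further probe sets of Rpl13a had SDs of 0.21, 0.10 and 0.15, and those of Rpl7 had 0.10 and 0.04. The largest spreads of kept probe sets were those of Rpl39l (SD 0.86), Rpl27a (SD 0.71) and Rpl14 (SD 0.65).

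**Figure D1:**
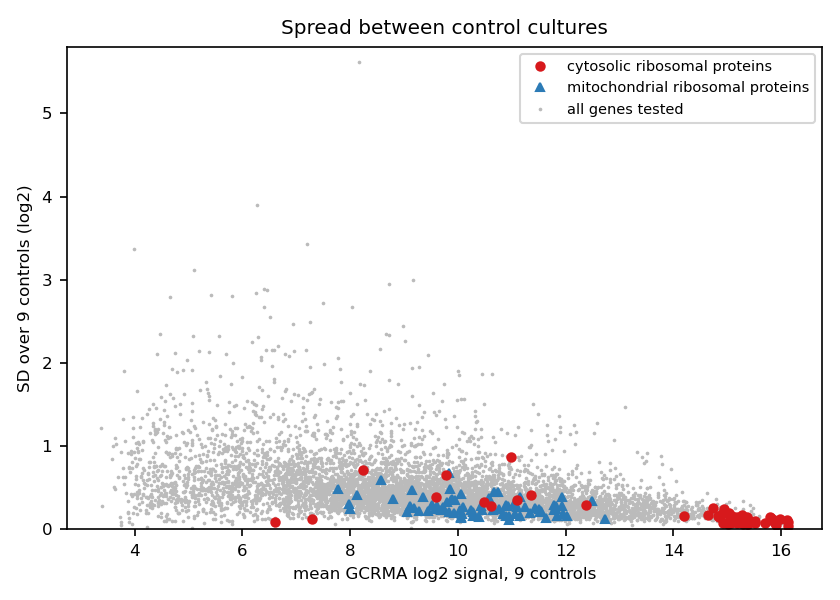
SD over the 9 control arrays (log2, vertical axis) against their mean GCRMA log2 signal (horizontal axis), 1 point per gene that passed the filter. Cytosolic ribosomal protein genes are red circles, mitochondrial ribosomal protein genes blue triangles and all genes tested grey dots. Of the 47 red points 36 lie at a mean over all arrays of 14 or more, with a median SD of 0.11.

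The first question was whether an extra copy of a ribosomal protein gene raised its own message. Of the 47 genes, 2 lie on chromosome 1 (Rpl7 and Rpl37a), 1 lies on chromosome 16 (Rpl39l), and 0 lie on chromosomes 13 or 19. Rpl39l had its highest signals of the series in the trisomy 16 cultures. On the 1 trisomy 1 array Rpl37a was slightly higher than in any control, and Rpl7 was level with its highest control. As the setting for these values, the genes of the extra chromosome had a median log2 difference of 0.70 in trisomy 1 (414 genes) and of 0.61 in trisomy 16 (243 genes).

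Rpl37a encodes a small protein of the large subunit and lies at chr1:72711260-72713813. Its signal was 15.76 in the trisomy 1 culture, against 15.39, 15.52 and 15.60 as the lowest, median and highest of the 9 controls. The trisomy 1 value was above all controls on this 1 array, for which the share of all genes that did so is not given here. The log2 difference was 0.24, which did not pass (limma, Benjamini-Hochberg adjusted p = 1.0), and the further probe sets of the gene gave 0.18 and 0.31. Against control replicate 9 alone, which shares the first number of its title, the difference was 0.21.

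Rpl7, a large subunit protein that binds RNA, lies at chr1:16101295-16104433. It was at 15.46 in trisomy 1, against 15.29, 15.37 and 15.45 as the lowest, median and highest control. The difference of 0.08 did not pass (limma, Benjamini-Hochberg adjusted p = 1.0), and its 2 further probe sets gave 0.27 and 0.04. Subtracting the array median turned it to -0.07, quantile normalization to -0.01. For both chromosome 1 genes the difference lay below the first quartile of 0.33 of the 414 chromosome 1 genes, at signals above 15.

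Rpl39l is a paralog of Rpl39 that in mouse is known for high expression in the testis, and lies at chr16:10170197-10174911. Its signal was 13.01, 12.65 and 12.40 in the trisomy 16 cultures, against 9.29, 11.00 and 11.94 as the lowest, median and highest control. All 3 trisomy 16 arrays were above all 9 controls, and Rpl39l was the 1 ribosomal protein gene of 47 for which this held (1.12% of all genes tested). The means were 12.68 ± 0.31 in trisomy 16 (SD, n = 3) and 10.99 ± 0.86 in controls (SD, n = 9). The log2 fold change was 1.69 ± 0.49 (SE), which had an unadjusted p of 0.0034 and did not pass over all genes (limma, Benjamini-Hochberg adjusted p = 0.30). The controls were not alike: replicates 1, 2 and 3, which share both the first number and the replicate number with the trisomy 16 cultures, were at 11.67, 11.76 and 11.94, the 3 highest of the 9. Against its own numbered control, each trisomy 16 culture was higher, by 1.34, 0.88 and 0.46. The largest difference, 1.34, and the highest signal, 13.01, are those of replicate 1, the 3'-biased array. Fitted over these 6 arrays in numbered pairs, the difference was 0.89 (limma, Benjamini-Hochberg adjusted p = 0.24).

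In the other trisomies, where Rpl39l has no extra copy, its signal was 9.13, 10.18, 11.04 and 9.28 in trisomy 13, 11.09 in trisomy 1 and 10.80 in trisomy 19. The trisomy 13 values overlapped the controls, with a log2 fold change of -1.09 ± 0.45 (SE; limma, Benjamini-Hochberg adjusted p = 0.18). Its partner Rpl39, on chromosome X, was at 6.62, 6.47 and 6.56 in trisomy 16, against a control range of 6.49 to 6.79. Rpl39l had the widest spread of the 47 genes, and no further probe set of it was measured.

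**Figure D2:**
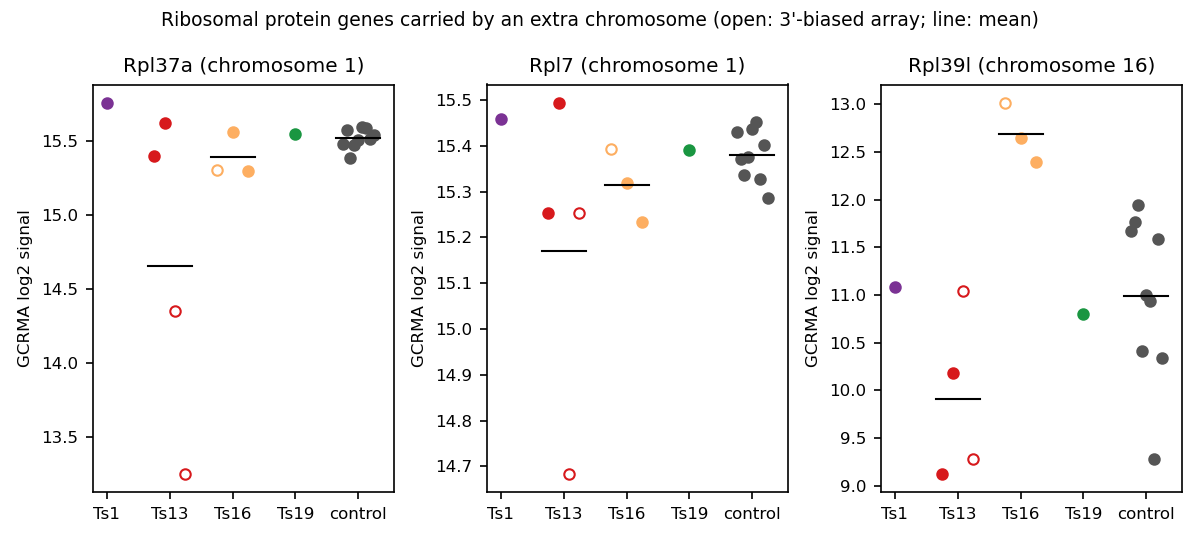
GCRMA log2 signals (vertical axes, different scales) of Rpl37a, Rpl7 and Rpl39l on each of the 18 arrays, by trisomy (Ts1, Ts13, Ts16, Ts19) and control. Lines are group means and open circles the 3'-biased arrays. The 3 trisomy 16 points of Rpl39l, at 12.40 to 13.01, stand above the 9 controls. Rpl37a on the 1 trisomy 1 array stands at 15.76, above a highest control of 15.60.

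The next question was whether ribosomal protein genes elsewhere in the genome differed in the trisomic cells. In trisomy 13, 0 of 47 passed (limma, Benjamini-Hochberg adjusted p under 0.05), where 1.76% of all genes tested did: 0 rose, beside 1.1% of all genes, and 0 fell, beside 0.664%. All 4 arrays were above all controls for 0 of the 47 (1.77% of all genes) and below them for 0 (1% of all genes). At an unadjusted p under 0.05 there were 11, all lower in trisomy 13, which is read beside 21.9% of all genes. The lowest adjusted p was 0.080, for Rps19. The median of the 47 log2 fold changes was -0.11, with 37 below 0, while the median of all genes was 0.01 with 48.8% below 0. With array medians subtracted the median of the 47 was 0.09 and that of all genes 0.22. Relative to all genes it was -0.13 on both scales.

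In trisomy 16, 0 of 47 passed (limma; 0.0406% of all genes), and 1, Rpl39l, had an unadjusted p under 0.05 (6.99% of all genes). The median of the 47 was -0.04, beside -0.05 for all genes, and with array medians subtracted it was 0.20, beside 0.19 for all genes. In trisomy 1, 0 of 47 passed (limma; 0.0406% of all genes, 0.0271% higher and 0.0135% lower), 3 had an unadjusted p under 0.05 (6.29%) and the median was -0.05, beside 0.05 for all genes. In trisomy 19, 0 of 47 passed (limma; 0% of all genes), 2 had an unadjusted p under 0.05 (1.96%) and the median was 0.04, beside -0.08 for all genes. The median of the 47 was -0.20 in trisomy 1 and 0.12 in trisomy 19 with array medians subtracted.

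With all 9 trisomic arrays together, 0 of the 44 ribosomal protein genes outside chromosomes 1, 13, 16 and 19 passed (limma; 0.0646% of all such genes, 0.0323% in each direction) and 1, Rps19, had an unadjusted p under 0.05 (6.66%). Between trisomy 13 and trisomy 16, outside their own chromosomes, 0 of 46 passed (limma; 0.918% of genes) and 9 had an unadjusted p under 0.05 (15.9%), of which 8 were lower in trisomy 13. These comparisons share the same control or trisomic arrays. Taken without sign, the median log2 difference of the 47 genes was 0.14 in trisomy 13, beside 0.34 for all genes, and 0.08 in trisomy 16, beside 0.25. It was 0.12 in trisomy 1, beside 0.31 for all genes, and 0.08 in trisomy 19, beside 0.24.

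Array by array, the median of the 47 deviations from the control mean stayed close to 0. It was -0.14, 0.02, -0.06 and -0.03 on trisomy 13 replicates 1 to 4 and 0.04, -0.05 and -0.01 on trisomy 16 replicates 1 to 3. On the trisomy 1 array it was -0.05 and on the trisomy 19 array 0.04, and the 9 controls ran from -0.06 to 0.05. Trisomy 13 replicate 1 alone lay outside the range of the controls, with 36 of 47 genes below the control mean. Relative to the median of all genes on the same array this did not hold: trisomy 13 replicate 1 was at -0.07, inside the control range of -0.17 to 0.13, and the array outside it was trisomy 16 replicate 3 at 0.15. On trisomy 13 replicate 1 the large subunit genes had a median deviation from the control mean of -0.13 and the small subunit genes of -0.17.

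**Figure D3:**
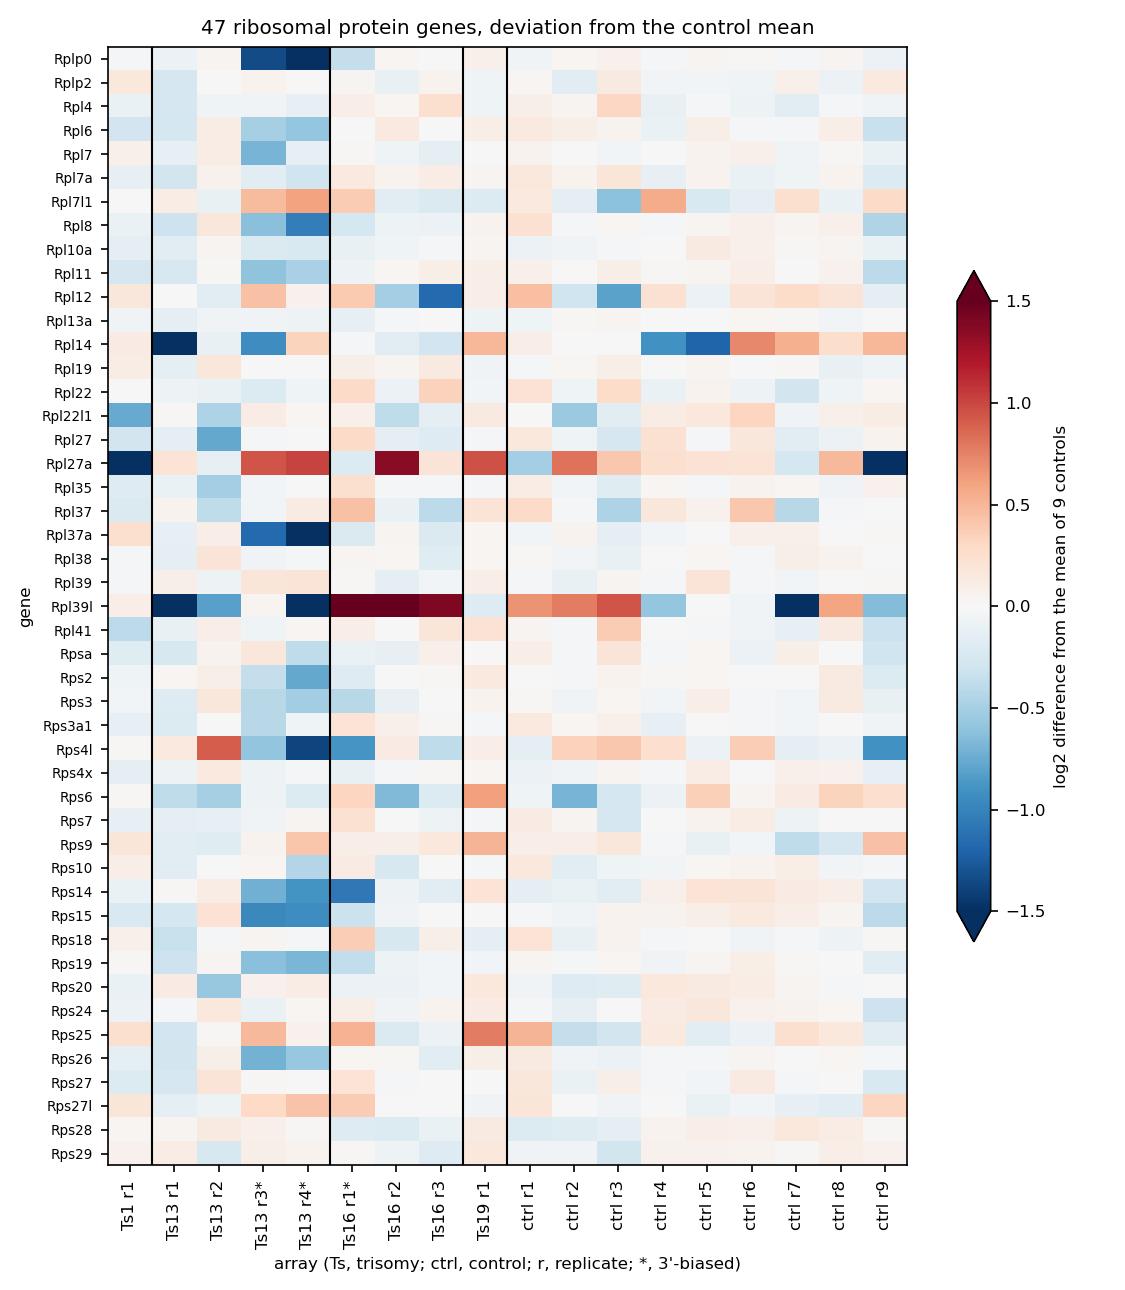
Deviation of 47 ribosomal protein genes (rows, large subunit above small) from the mean of the 9 controls, on each array (columns: trisomy 1, 13, 16 and 19, then controls), as a colour from -1.5 to 1.5 on the log2 scale, with larger values in the end colours. Most fields are near 0; the dark blue fields of Rplp0 and Rpl37a lie on the 2 starred, 3'-biased trisomy 13 arrays, and the red fields of Rpl39l on the 3 trisomy 16 arrays.

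In trisomy 13 the 2 arrays with 3' bias and the other 2 differed in which genes were low and by how much. The median deviation of the 47 genes from the control mean was -0.06 on the 3'-biased arrays, with 31 below 0, and -0.09 on the other arrays, with 37 below 0. The median of all genes was 0.10 on the 3'-biased arrays and 0.00 on the others. Deviations beyond 0.5 were more frequent on the 3'-biased arrays, for these genes and for all genes. There 12 of the 47 (25.5%) averaged more than 0.5 below the control mean, near the 27.5% of all genes, and 2 (4.26%) more than 0.5 above it, beside 29.1% of all genes. On the other 2 arrays 2 genes were that far below (Rpl39l and Rpl14) and 1 above (Rps4l), beside 11.3% and 11.6% of all genes. The 12 genes were Rpl37a, Rplp0, Rps4l, Rps15, Rpl39l, Rpl8, Rps14, Rps19, Rps26, Rps2, Rpl11 and Rpl6.

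Rplp0 was at 15.82, 15.95, 14.57 and 13.89 in trisomy 13, against 15.83, 15.93 and 15.98 as the lowest, median and highest control. Replicate 2 was inside the control range and replicate 1 just under it, and the 3'-biased arrays lay far below. Its log2 fold change was -0.85 ± 0.27 (SE; limma, Benjamini-Hochberg adjusted p = 0.10), and without the 3'-biased arrays it was -0.02 ± 0.07 (SE). On the 3'-biased trisomy 16 array Rplp0 was at 15.56, below all controls too, whereas the other trisomy 16 arrays had 15.94 and 15.92.

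Rpl37a was at 15.40, 15.62, 14.36 and 13.25 in trisomy 13, against a control range of 15.39 to 15.60. Its fold change of -0.86 ± 0.29 (SE; limma, Benjamini-Hochberg adjusted p = 0.12) was -0.01 ± 0.09 without the 3'-biased arrays. The further probe sets of Rpl37a gave -1.5 and -1.90 over all trisomy 13 arrays and 0.01 and -0.11 over the unbiased ones. All 3 probe sets were low on the 3'-biased arrays and near the controls on the others.

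Rps19, the protein most often mutated in human Diamond-Blackfan anaemia, was at 14.76, 15.12, 14.45 and 14.38 in trisomy 13, against 14.92, 15.09 and 15.17 as the lowest, median and highest control. Of these, 3 of 4 were below all controls, 1 of them unbiased. The fold change was -0.40 ± 0.11 (SE; limma, Benjamini-Hochberg adjusted p = 0.080), and it was -0.13 ± 0.10 without the 3'-biased arrays. In trisomy 16 Rps19 had 14.71 on the 3'-biased array, below all controls, and was inside the control range on the others.

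Rpl11, the large subunit protein that binds Mdm2, was at 14.94, 15.21, 14.58 and 14.69 in trisomy 13, against 14.79, 15.23 and 15.28 as the lowest, median and highest control. The fold change was -0.33 ± 0.11 (SE; limma, Benjamini-Hochberg adjusted p = 0.12) and -0.11 without the 3'-biased arrays. Only the 3'-biased values were below the controls.

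Rps14, a small subunit protein whose loss is tied to the 5q- syndrome in humans, was at 15.29, 15.38, 14.54 and 14.37 in trisomy 13 and at 14.19, 15.19 and 15.10 in trisomy 16, against 14.98, 15.34 and 15.47 as the lowest, median and highest control. The 3 values below the controls were those of the 3'-biased arrays. The fold changes were -0.37 in trisomy 13 and -0.44 ± 0.22 (SE) in trisomy 16 (limma, Benjamini-Hochberg adjusted p = 0.73 for trisomy 16).

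Rps3, at the entry of the mRNA channel, was at 14.72, 15.09, 14.51 and 14.40 in trisomy 13 and at 14.51, 14.81 and 14.92 in trisomy 16, against a control range of 14.81 to 15.05. Its trisomy 13 fold change was -0.24 ± 0.11 (SE; limma, Benjamini-Hochberg adjusted p = 0.21), and -0.01 without the 3'-biased arrays. Rps26, the small subunit protein by the mRNA exit, had 15.02, 15.39, 14.59 and 14.73 in trisomy 13, against 15.21 to 15.43 in controls, and a fold change of -0.36 ± 0.11 (SE; limma, Benjamini-Hochberg adjusted p = 0.092) that was -0.09 without these arrays.

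Other genes were near the controls on the same 2 arrays. Rplp2, a protein of the acidic stalk, was at 15.56, 15.82, 15.87 and 15.82 in trisomy 13, against 15.65 to 15.96 in controls. Rpl13a was at 15.97, 16.06, 16.07 and 16.04, against 16.06 to 16.16, and Rpsa, a small subunit protein also known as the laminin receptor, at 14.81, 15.10, 15.22 and 14.66, against 14.74 to 15.24. These values are of the probe sets kept. The further probe sets of Rpl13a gave -0.25, -0.10 and -0.48 over all trisomy 13 arrays and -0.04, -0.10 and -0.69 over the unbiased ones. Rplp2 was inside the control range on both 3'-biased arrays, whereas Rpl13a and Rpsa were inside it on replicate 3 and under it on replicate 4. Rpl27a went the other way on the 3'-biased arrays, with 8.46, 8.13, 9.19 and 9.26 in trisomy 13, against 6.65, 8.47 and 9.05 as the lowest, median and highest control. Its fold change of 0.51 did not pass. Rpl14 was at 8.19, 9.67, 8.85 and 10.12 in trisomy 13, against 8.58, 9.88 and 10.50, with a fold change of -0.57 that did not pass. It was -0.85 without the 3'-biased arrays and -0.88 to -0.23 when 1 array was left out, the highest without trisomy 13 replicate 1. Rpl35, a large subunit protein, was likewise further below the controls on the unbiased arrays for the probe set kept, at -0.31 against -0.16 over all 4. It did not pass. Of the unbiased arrays replicate 1 was at 16.02, inside the control range of 15.94 to 16.23, and replicate 2 at 15.61. The further Rpl35 probe sets that passed differed in direction. They gave -0.07, -0.14, -0.23 and 0.09 on the unbiased arrays, against -0.04, -0.11, -0.31 and -0.51 over all 4.

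**Figure D4:**
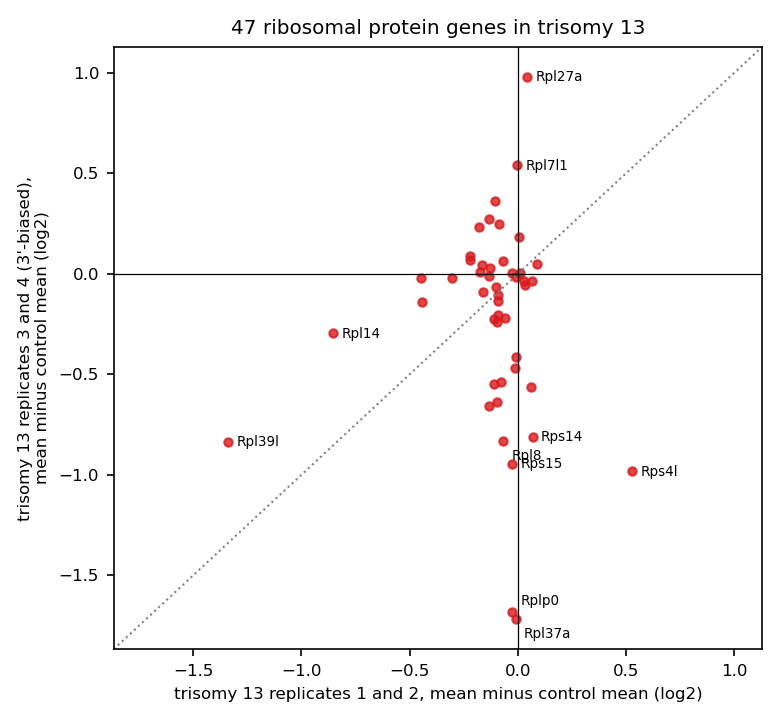
Mean deviation from the control mean (log2) of 47 ribosomal protein genes on the 2 3'-biased trisomy 13 arrays (vertical axis) and on trisomy 13 replicates 1 and 2 (horizontal axis), 1 point per gene, with equal values along the dotted line. Rpl37a at -1.72 and Rplp0 at -1.68 on the vertical axis lie at -0.01 and -0.02 on the horizontal axis.

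Probe sets of 1 gene often differed in size, and in part in sign. Of the 47 genes 19 had several probe sets that passed, and in trisomy 13 the median range between their differences from the controls was 0.36, with a range over 0.5 in 7 and both signs in 7. The other 12 genes in each count had a range of at most 0.5, or probe sets of 1 sign, as Rps15 with -0.48 and -0.47. In trisomy 16 the median range was 0.18, with 1 above 0.5 and both signs in 10. The range was widest for Rpl22, a large subunit protein that binds viral and cellular RNA, with -0.11 for the probe set kept and -1.66 for the other in trisomy 13, and 0.18 and -0.84 in trisomy 16. Rps9 gave 0.03, -1.07 and -0.63 over its 3 probe sets in trisomy 13. Rps10 gave -0.15 for the kept probe set and -0.71 to 0.01 for the 4 others that passed. These trisomy 13 values are over all 4 arrays, 2 of them 3'-biased. Over the unbiased arrays Rpl22 gave -0.09 and -0.42, and Rps9 gave -0.18, -0.09 and -0.49. There Rps10 gave -0.09 for the kept probe set and -0.08 to -0.05 for the 4 others. Rpl13a went the other way, from -0.48 to -0.08 over all 4 arrays and from -0.69 to -0.04 over the unbiased ones. The probe sets that list a ribosomal protein gene with other genes, 95 above the filter, had a median of -0.09 in trisomy 13, with 72 below 0, and of 0.00 in trisomy 16, with 49 below 0. The median was -0.11 in trisomy 1, with 77 below 0, and 0.07 in trisomy 19, with 30 below 0.

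Paralogs were compared with their partners, each against its own controls. Rpl22l1, the paralog of Rpl22, was at 13.97 in trisomy 1, against 14.18, 14.81 and 15.05 as the lowest, median and highest control. It lay below all controls on this 1 array, for which the share of all genes that did so is not given here. The difference was -0.76 ± 0.25 (SE, limma, Benjamini-Hochberg adjusted p = 0.54), and -0.86 against control replicate 9 alone. Rpl22 in trisomy 1 was at 14.65, inside its control range of 14.36 to 14.92.

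Rps27l, a paralog of Rps27 known as a p53 target, was at 14.06, 14.12, 14.49 and 14.62 in trisomy 13, at 14.57, 14.20 and 14.20 in trisomy 16, at 14.38 in trisomy 1 and at 14.14 in trisomy 19, against 14.02 to 14.51 in controls. The 2 highest trisomy 13 values and the highest trisomy 16 value were those of the 3'-biased arrays. Rps27 was at 7.04, 7.49, 7.31 and 7.29 in trisomy 13, against 7.07 to 7.46. Rpl7l1, which has a role in ribosome assembly, was at 11.21, 10.99, 11.58 and 11.70 in trisomy 13, against 10.48 to 11.65. Its fold change was 0.27, whereas its second probe set gave -0.56. Over the unbiased trisomy 13 arrays the kept and the second probe set gave -0.002 and 0.18. Rps4l was at 11.50, 12.26, 10.76 and 9.97 in trisomy 13, against 10.44 to 11.75 in controls, and Rps4x, its partner on chromosome X, at 15.62, 15.84, 15.61 and 15.66, against 15.57 to 15.81.

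In the single trisomy 1 culture the lowest gene was Rpl27a, with 5.70, against 6.65, 8.47 and 9.05 as the lowest, median and highest control. The difference of -2.54 ± 0.70 (SE; limma, Benjamini-Hochberg adjusted p = 0.41) was -0.94 against control replicate 9, the lowest control, which shares its first number. Rpl41, the shortest ribosomal protein, was at 14.64, against 14.70 to 15.41 in controls. Its difference was -0.39 ± 0.18 (SE; limma, Benjamini-Hochberg adjusted p = 0.77), and the other 3 probe sets gave -0.42, -1.0 and -1.16. Against control replicate 9 it was -0.06. Rpl27a and Rpl41 lay below all controls on this 1 array, for which the share of all genes that did so is not given here.

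In the single trisomy 19 culture the 2 genes with an unadjusted p under 0.05 were Rps25 and Rps9, both of the small subunit. Rps25 was at 11.37, against 10.25 to 11.12 in controls, a difference of 0.77 ± 0.34 (SE; limma, Benjamini-Hochberg adjusted p = 1.0). Rps9 was at 15.45, against 14.56 to 15.38, a difference of 0.51, while its further probe sets gave -0.05 and 0.45. Rps6, the small subunit protein phosphorylated by the S6 kinases, was at 11.10, above its control range of 9.79 to 10.84, and in trisomy 13 it was at 10.11, 9.98, 10.41 and 10.28, inside it. Rps25, Rps9 and Rps6 lay above all controls on the 1 trisomy 19 array, for which the share of all genes that did so is not given here.

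The arrays of the first numbers 89 and 92, which are the 3 trisomy 16 cultures and control replicates 1 to 3, stood apart from the other 12 for 4 genes: Rps28 was lower on all 6, and Rpl4, Rps3a1 and Rpl39l higher on all 6. Among all genes tested 1.26% did so. Rps28 was at 15.61, 15.60 and 15.71 in trisomy 16 and 15.60, 15.62 and 15.67 in control replicates 1 to 3, against 15.83 to 15.97 in control replicates 4 to 9, and the lowest of the other trisomic arrays was 15.82. Its trisomy 16 difference from all controls was -0.17, and its further probe sets gave 0.02 and -0.02. For Rpl12, a protein of the stalk base, the trisomy 16 values were 9.98, 9.08 and 8.43, against 8.79 to 10.03 in controls, and the difference of -0.42 did not pass. It was -0.83 without the 3'-biased array and -0.06 without trisomy 16 replicate 3, and against the control of the same number the cultures differed by -0.05, -0.21 and -0.36.

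Fau, whose protein is a ubiquitin-like fusion with the small subunit protein Rps30, was the 1 ribosomal protein gene under another symbol with a usable probe set. It lies on chromosome 19, and the share of all genes above all controls on the 1 trisomy 19 array is not given here. There Fau was at 15.04, above a control range of 14.21 to 14.75. Its difference there was 0.46 ± 0.30 (SE; limma, Benjamini-Hochberg adjusted p = 1.0), and it was -0.35 in trisomy 13, -0.20 in trisomy 16 and -0.24 in trisomy 1.

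Genes around the ribosome were read from lists. In trisomy 13, 1 of 78 genes of ribosome assembly and rRNA synthesis fell and 0 rose (0.664% and 1.1% of all genes), with a median of -0.28. The gene was Rrp1b, a nucleolar protein, at -1.26 ± 0.31 (SE; limma, Benjamini-Hochberg adjusted p = 0.046) and at -1.04 on the unbiased arrays; 24 of the list (30.8%, beside 21.9% of all genes) had an unadjusted p under 0.05, 22 of them lower. Nolc1 was at -1.56 and Fbl, the methylase of ribosomal RNA, at -1.04, and neither passed. The 2 of 74 mitochondrial ribosomal protein genes that rose (1.1% of all genes), Mrps36 (0.83) and Mrps30 (0.71), both lie on chromosome 13. The list's median was -0.17, and 19 (25.7%) had an unadjusted p under 0.05, near the 21.9% of all genes.

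By limma 0 of 32 initiation factors passed in trisomy 13 (median -0.18, 6 at an unadjusted p under 0.05), with Eif3c at -0.56. Nor did any of 9 elongation and termination factors (median -0.09, 3 at an unadjusted p under 0.05), 16 genes of the mTOR pathway and Myc (median -0.24, 6) or 14 genes of Mdm2 and p53 targets (median -0.05, 4). Tsc2 was at -1.27, Eif4ebp1 at -0.65 and Myc at 0.77 (log2 differences), and none of these passed. The counts are read beside all genes tested in trisomy 13, of which 1.76% passed and 21.9% had an unadjusted p under 0.05 (limma). All values here are over the 4 trisomy 13 arrays, 2 of them 3'-biased.

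In trisomy 16, trisomy 1 and trisomy 19, 0 genes of these lists passed (limma), and 6.99%, 6.29% and 1.96% of all genes had an unadjusted p under 0.05. At an unadjusted p under 0.05 the ribosome assembly list had 2, 4 and 1 genes in trisomy 16, 1 and 19, and the initiation factors 3, 2 and 0. The elongation factors had 1, 0 and 0, the mTOR list 0, 0 and 0, and the mitochondrial ribosomal proteins 1, 3 and 1. The medians of the assembly list were -0.16, -0.07 and -0.11 in these trisomies.

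The Mdm2 and p53 list had 0, 5 and 0 genes at an unadjusted p under 0.05 in trisomy 16, 1 and 19, with medians of -0.27, 0.71 and 0.18. In the trisomy 1 culture 12 of its 14 genes (85.7%) were above the control mean, as were 55.3% of all genes, and the 5 are 35.7% of the list, beside 6.29% of all genes. Mdm2 itself, the ligase that marks p53 for breakdown, was 2.02 ± 0.44 (SE) higher there, and Cdkn1a, the cell cycle inhibitor induced by p53, 1.32 ± 0.49 (SE) higher, both in 1 array and neither past the test (limma, Benjamini-Hochberg adjusted p = 0.17 and 0.63).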

How the data were processed

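Messenger RNA of 18 cultures was measured on Affymetrix arrays with 22690 probe sets, 64 of them controls. Per the labels, RNA was extracted with Trizol, and 5 ug of it gave the biotin-labelled cRNA. The deposited values are log2 signals, made by the authors with affy and GCRMA, per the submitters' processing notes. The sources used here give no versions and do not say if the arrays were summarised jointly. Arrays give no counting depth, and their number limits the precision.

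The 20393 probe sets with 1 gene in the array's gene table were used (691 list several, 1606 none), 1 probe set per gene. Symbols and chromosomes follow RefSeq for GRCm38.p6. Genes with a mean log2 signal of at least 4 were tested in R 4.3.3 by limma 3.58.1 (lmFit and trended eBayes; 5 groups, 13 residual degrees of freedom, two-sided), and p-values were adjusted by Benjamini and Hochberg over all genes of a comparison. The script was tested on simulated data.

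The genes, lists and tests were chosen with earlier results of these data known. Named genes are those on the extra chromosomes, the 4 largest differences in trisomies 13 and 16, paralogs with their partners, the extremes of level and spread in controls, and genes of well-known role; 14 (Rps28, Rps15, Rps26, Rpl8, Rps9, Rps25, Rpl41, Rpl6, Rps4l, Rps4x, Rps10, Rpl4, Rps3a1 and Rps2) were named after their values were seen. Up to 4 genes of a list were named in the order of p.

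The 3'-bias limit of 3 on the log2 difference was chosen with the control values in view. What the first number in the titles means is not stated in those sources. By replicate number, trisomy 16 and control replicates 1 to 3 deviated together from their group means (correlations of 0.52, 0.41 and 0.58 over genes). These numbers were therefore taken to pair the samples, a choice made on the same data. Arrays without a shared first number reached similar values, as trisomy 16 replicate 3 with control replicate 5 (0.42) and trisomy 13 replicate 2 with control replicate 3 (0.47). By replicate number the trisomy 13 correlations were -0.24, -0.03, -0.26 and -0.25, but these pairs do not share a first number. With the controls of the same first number they were 0.36 for trisomy 13 replicate 1, 0.16 and -0.01 for replicate 2, -0.03 and 0.05 for replicate 3, and -0.10 for replicate 4. Alternatives were other filters, probe sets, scalings, blocks and covariates, fits without the 3'-biased arrays, and leaving out each array.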

Additional observations from a re-analysis of the deposited data

Results flagged for a closer look

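Groups of 4 to 10 arrays were searched for a single array far from the rest. This was done over 38 named genes and the median of the 47 genes, which made 78 groups, and 8 were found. For genes fixed in advance the rule flags about 1 in 20 groups by chance. That rate cannot be set beside the 8, because 14 genes were named after their values were seen. Rpl8, Rps15, Rps2 and Rps4l are among those 14, and the genes share the same arrays. On control replicate 9 the rule flagged 5 genes as low: Rpl11 at 14.79, Rpl8 at 14.45, Rps15 at 14.70, Rps2 at 15.03 and Rps4l at 10.44. Further genes were lowest of all controls on that array without being flagged, such as Rpl6 at 14.52, Rpl41 at 14.70 and Rpsa at 14.74. The 5 flagged genes and Rpl6 are among the 12 that were low on the 3'-biased trisomy 13 arrays, while Rpl41 and Rpsa are not. The 3' minus 5' difference of Gapdh on control replicate 9 was 1.41, the highest of the controls. The part of this difference in these values was not tested. Rps29 was lowest on control replicate 3 at 15.84. On trisomy 13 replicate 2, Rpl22l1 was lowest at 14.26 and Rps29 at 15.86. Between trisomy 13 and trisomy 16 the difference itself was tested for all genes outside their chromosomes, and 0 of the 46 passed (limma; 9 at an unadjusted p under 0.05).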

How the results depend on the processing

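Of 31 alternative settings, 18 left out 1 array each. The count of ribosomal protein genes that passed stayed at 0 in trisomy 16, trisomy 1, trisomy 19 and all trisomies under each of them. In trisomy 13 it was 1 with quantile normalization (Rps19), and 0 to 9 when 1 array was left out: 2 without replicate 1 (Rplp0 and Rpl37a) and 9 without replicate 2 (Rplp0, Rpl37a, Rps15, Rpl8, Rps19, Rps26, Rpl6, Rpl11 and Rps3, all lower). Either omission leaves the 3'-biased arrays as 2 of 3, and without the 3'-biased arrays the count was 0. The share of all genes that passed in these fits is not given here. The counts of 2 and 9 therefore cannot be read as particular to ribosomal protein genes. Between trisomy 13 and trisomy 16 it was 0 to 1 (Rps26, without trisomy 13 replicate 2).

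The medians moved by more than the SD between arrays in few settings. With array medians subtracted the median of trisomy 13 was 0.090, that of trisomy 16 was 0.20, that of trisomy 1 was -0.20, that of trisomy 19 was 0.12 and that of all trisomies was 0.11, along with the medians of all genes. In trisomy 1 the median was 0.0029 with the first number as a block, -0.11 over probe sets that also list other genes (an alternative chosen after seeing the data), and -0.091 to -0.047 when 1 array was left out, the lowest without control replicate 9. In trisomy 19 it was -0.0042 with quantile normalization and -0.011 under the replicate number block. The replicate block changed no call. Rpl39l in trisomy 16 was 0.89 with the block over the paired arrays or the first number and 0.96 with the replicate number over all arrays; it was 1.48 to 1.83 when 1 array was left out. Its adjusted p ran from 0.20 to 1.0. Rpl37a in trisomy 1 was -0.02 under the replicate number block. The values reported rest on 1 to 4 arrays per trisomy, 3 of them 3'-biased, and on signals near the top of the scale.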
